A study of Mus musculus with 4 samples.

Results

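Gbx2, Tcf7l2, Lef1, Lhx9, Rora, Six3, Otp, Sim1, Nkx2-1 and Pou4f1 are 10 transcription factors of the diencephalon, the part of the forebrain that forms the thalamus, habenula and hypothalamus. They were taken by their symbols from the 19465 features of 4 coronal brain sections, and each symbol matched 1 feature. The sections came from wild-type C57BL/6J offspring at postnatal day 21, males per the study's methods, and each section is 1 sample. MF (median folate, 2 sections) pups had dams on a control diet with 2 mg folic acid per kg, and HF (high folate, 2 sections) pups had dams on an excess diet with 20 mg per kg. Both diets began 2 weeks before mating and ran through pregnancy and lactation, in dams labelled as 8 weeks old. Gene expression was measured with Visium, in which RNA in a fixed section is captured on an array of barcoded spots, and a spot holds several cells. Fewer cells of a type in a spot and less RNA per cell cannot be told apart in such counts.

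Thalamic relay neurons are glutamatergic cells that send sensory and motor signals to the cortex, and the midline nuclei and the habenula project to limbic and brainstem targets. The reticular nucleus is a thin sheet of GABAergic neurons around the relay nuclei that derives from the prethalamus. Gbx2 (homeodomain), Tcf7l2 and Lef1 (HMG-box partners of beta-catenin in Wnt signalling), Lhx9 (LIM homeodomain) and Rora (an orphan nuclear receptor) are known from the thalamus. Pou4f1 (POU homeodomain, also called Brn3a) is known from the habenula, and Six3 (homeodomain) from the prethalamus, striatum and ventral forebrain. Otp (homeodomain) and Sim1 (bHLH-PAS) are known from neuroendocrine neurons of the hypothalamus, and Nkx2-1 (homeodomain) from the ventral hypothalamus and from interneurons that reach the striatum and cortex.

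The sections held 13470 spots under tissue, of which 18 were removed for few counts, and 34983708 to 90098381 unique molecular identifiers (UMIs, 1 for each captured molecule) per section. Spots were clustered without the 10 factors or any other listed gene, which gave 20 clusters. Levels are given as CPM, the UMIs of a gene per 1000000 UMIs summed over the spots of an area in 1 section. They are compared for 1 gene across areas and never between genes, since the probes of different genes may capture unequally. The thalamus had 2 clusters, called Prkcd-led (220 to 555 spots per section) and Calb2-led (88 to 378 spots), and HF replicate 1 had most of its thalamic spots in the Calb2-led cluster. The habenula was 1 cluster of 33 to 70 spots with the medial markers Tac2 and Chrna3 among its leading genes, and the lateral marker Gpr151 led it too. Its spots carried choroid plexus genes as well, 12 of 12 detected, with a summed level of 4944 and 7384 CPM in MF and 11694 and 15033 CPM in HF. A cluster of 42 to 94 spots with Pvalb, Trh, Spp1 and Gad1 among its leading genes was not named and is called Pvalb-led. The name of the reticular nucleus was open only to clusters within the thalamic spots, so this cluster was not tried against it. Its levels of the 6 reticular nucleus markers summed to 3505 to 4281 CPM. Although the factors were not used to build the clusters, Gbx2 headed the leading genes of the Calb2-led cluster and Six3 those of the Pvalb-led cluster, and these 2 clusters are called by their next leading gene.

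HF replicate 2 stood apart in the hypothalamus. Its hypothalamic spots held 2.07 CPM of Pmch, the melanin-concentrating hormone gene, against 1441 to 3080 CPM in the other 3 sections. They held 2732 CPM of Oxt and 1997 CPM of Avp, the genes for oxytocin and vasopressin, against at most 14.6 CPM of Oxt and 2.96 CPM of Avp elsewhere. All 16 hypothalamic markers were detected in it, with a summed level of 8321 CPM against 9957 to 10257 CPM in the other sections. The level along the brain at which each section was cut is not given in the sources used here, so that level and diet cannot be told apart in this section. Results that rest on it are also given without it. HF replicate 2 also differed in peptide genes outside the hypothalamus, for example with 239 CPM of Avp in the habenula against 0 to 29.0 CPM in the other sections and 1.41 CPM of Pmch against 37.3 to 147 CPM.

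**Figure D1:**
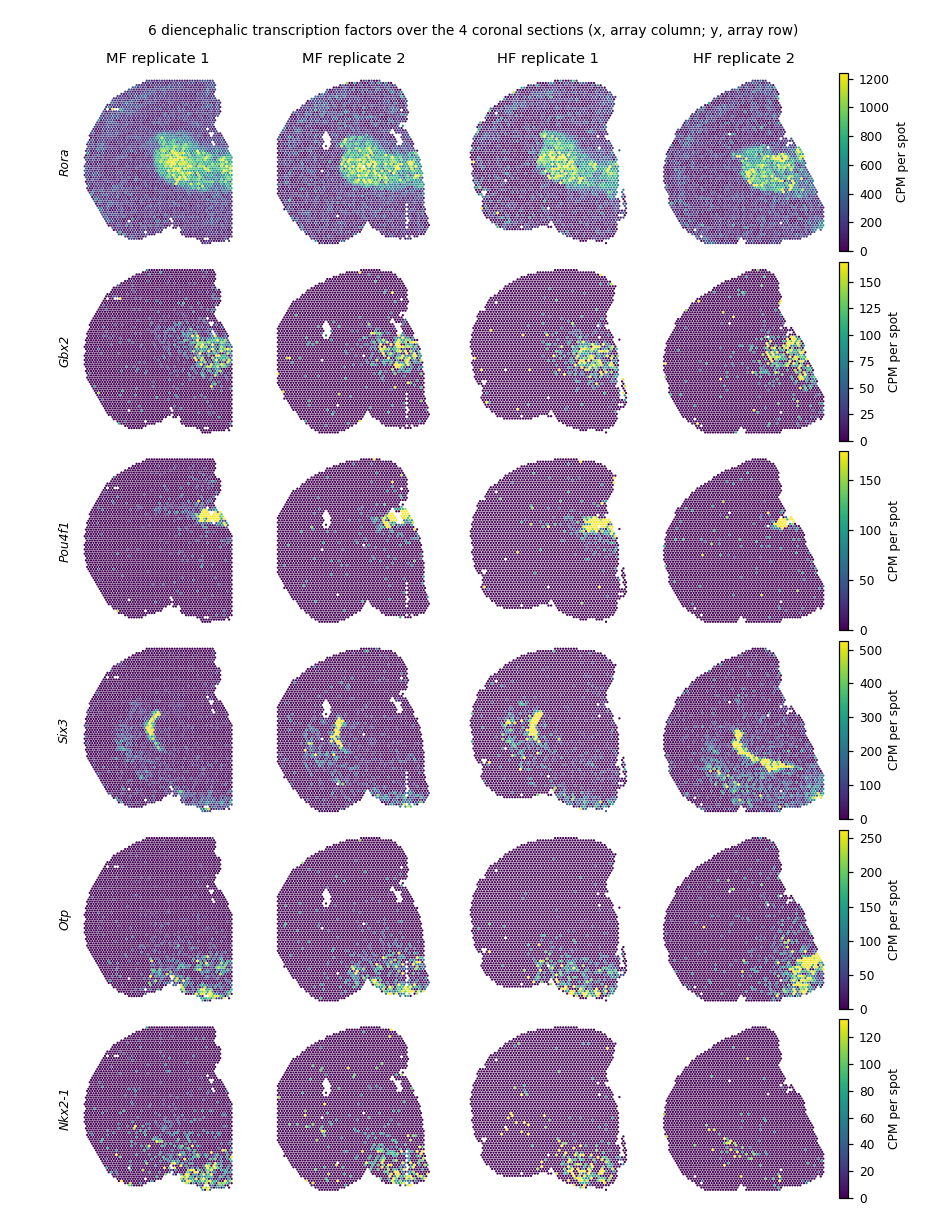
Maps of 6 of the factors over the 4 sections, with array column on the x axis, array row on the y axis and colour for CPM in a spot (capped at the 99th percentile of all spots). Rora covers the thalamus and Gbx2 mainly its right part in the maps, Pou4f1 marks the habenula, Six3 forms a thin curved band, and Otp and Nkx2-1 mark the hypothalamus, with Nkx2-1 at 4.67 CPM in the hypothalamic spots of HF replicate 2.

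All coordinates are of the mouse build GRCm38 with the GENCODE vM21 annotation, and all 10 genes are annotated as protein coding. The genes of the thalamic group are Gbx2 (ENSMUSG00000034486) at chr1:89927956-89931179, minus strand, Tcf7l2 (ENSMUSG00000024985) at chr19:55741820-55933654, plus strand, and Lef1 (ENSMUSG00000027985) at chr3:131110471-131224356, plus strand. Lhx9 (ENSMUSG00000019230) lies at chr1:138825186-138848577, minus strand, and Rora (ENSMUSG00000032238) at chr9:68653786-69388246, plus strand. Pou4f1 (ENSMUSG00000048349) is at chr14:104461676-104467999, minus strand, and Six3 (ENSMUSG00000038805) at chr17:85613608-85629302, plus strand. Otp (ENSMUSG00000021685) is at chr13:94875602-94885130, plus strand, Sim1 (ENSMUSG00000019913) at chr10:50894754-50989152, plus strand, and Nkx2-1 (ENSMUSG00000001496) at chr12:56531958-56536908, minus strand.

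RefSeq start sites (GRCm38.p6) gave 14 windows of 250 bases upstream for the 10 genes. As examples 4 are shown, of the thalamic factors Tcf7l2, Lef1 and Rora and of the habenular Pou4f1. Windows of other thalamic factors, such as Gbx2, are not shown. The Tcf7l2 window is chr19:55741560-55741809, plus strand, and is 72.8% G and C. The Lef1 window is chr3:131156044-131156293, plus strand, upstream of a start site inside the gene. The Rora window is chr9:68653536-68653785, plus strand, and the Pou4f1 window is chr14:104468000-104468249, minus strand. None of these 4 windows overlapped an annotated exon. Each is printed 5′ to 3′ on the strand of its gene, and capitals mark CTTTGA or its reverse complement TCAAAG, the core letters of a site for the TCF and LEF factors.
Tcf7l2: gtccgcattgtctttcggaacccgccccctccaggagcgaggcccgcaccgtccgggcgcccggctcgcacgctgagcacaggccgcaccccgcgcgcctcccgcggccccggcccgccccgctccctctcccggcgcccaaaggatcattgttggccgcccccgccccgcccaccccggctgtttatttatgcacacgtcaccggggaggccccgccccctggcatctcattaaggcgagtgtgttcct
Lef1: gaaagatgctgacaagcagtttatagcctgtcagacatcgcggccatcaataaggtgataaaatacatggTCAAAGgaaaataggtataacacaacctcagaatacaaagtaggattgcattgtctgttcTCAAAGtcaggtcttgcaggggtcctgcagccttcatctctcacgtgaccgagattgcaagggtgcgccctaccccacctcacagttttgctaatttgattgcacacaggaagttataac
Rora: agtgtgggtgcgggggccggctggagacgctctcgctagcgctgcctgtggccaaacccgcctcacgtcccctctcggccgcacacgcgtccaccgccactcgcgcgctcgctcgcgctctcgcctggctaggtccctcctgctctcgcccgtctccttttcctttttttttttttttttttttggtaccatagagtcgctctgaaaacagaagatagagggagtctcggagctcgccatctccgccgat
Pou4f1: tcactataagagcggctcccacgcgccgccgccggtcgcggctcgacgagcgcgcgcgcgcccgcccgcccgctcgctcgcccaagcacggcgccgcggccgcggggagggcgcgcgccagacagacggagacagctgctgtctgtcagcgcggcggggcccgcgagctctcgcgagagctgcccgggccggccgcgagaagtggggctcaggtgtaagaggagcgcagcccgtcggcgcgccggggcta
The Lef1 window held the TCF/LEF letters at 2 places and was the only 1 of the 14 windows with them. Of 32851 RefSeq windows of the same length, with 1 chromosome left out, 13.8% held them on either strand. The printed Lef1 window was 1 of several of that gene. The others, among them chr3:131110047-131110296 near the start of the gene, held none and are not printed. TAATTA, core letters of homeodomain sites and its own reverse complement, was in 0 of the 14 windows and in 4.84% of all. AGGTCA, read on both strands as core letters of sites for nuclear receptors such as Rora, was in 0 of the 14 and in 14% of all. GGGCGG on either strand, the letters of a GC box, was in 8 of the 14 windows (6 of the genes) and in 32.7% of all. CAAGTG, read on both strands for NKX2 factors, was in 2 overlapping windows of Lef1 (2 of the 14) and in 11.6% of all. CACGTG, an E-box and its own reverse complement, was in 1 window each of Gbx2 and Lef1 (2 of the 14) and in 6.02% of all. A match describes the letters only, and no match says only that they are not in these windows.

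The thalamic factors differed in how they divided the Prkcd-led and the Calb2-led spots. Rora was at 795 and 786 CPM in the Prkcd-led spots of MF replicates 1 and 2 and at 828 and 714.5 CPM in those of HF. In the Calb2-led spots it was at 524 and 586 CPM in MF and at 597 and 459 CPM in HF, so the ranges of both areas lay apart. The next areas in its order were the habenula (154 to 180 CPM), the Pvalb-led spots (121 to 177 CPM) and the cortex (122 to 150 CPM), which overlapped each other.

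Gbx2 had the opposite order between these areas. Its level in the Calb2-led spots was 66.6 and 68.2 CPM in MF and 57.3 and 83.0 CPM in HF. In the Prkcd-led spots it was 30.8 and 23.2 CPM in MF and 18.8 and 42.7 CPM in HF, and these ranges did not overlap those of the Calb2-led spots. The habenula followed with 7.596 to 14.5 CPM, apart from both, and no other area averaged over 5 CPM. Thalamic spots made up 15.7 to 18.8% of the spots of a section and held 74.5 to 87.5% of its Gbx2 UMIs.

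Tcf7l2 reached 291 and 298 CPM in the Calb2-led spots of MF and 291 and 383 CPM in those of HF. In the Prkcd-led spots it was at 208 and 227 CPM in MF and 221 and 330 CPM in HF. These 2 areas overlapped each other and lay above the habenula (150 to 208 CPM, with the lowest Prkcd-led section at 208.3 and the highest habenular one at 208.2), and the hypothalamus was far lower, at 31.2 to 73.0 CPM. Lef1, its relative, was at 104 and 109 CPM in the Prkcd-led spots of MF and at 176 and 137 CPM in those of HF. Its Calb2-led levels were 76.8 and 107 CPM in MF and 152 and 91.3 CPM in HF, overlapping the former. Lef1 was next highest in the habenula (41.8 to 56.6 CPM), the choroid plexus (36.6 to 68.7 CPM over 9 to 14 spots per section) and the meninges (25.1 to 58.6 CPM), which overlapped each other.

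Lhx9 was highest outside the thalamus proper, in the habenula, at 217 and 258 CPM in MF and 255 and 331 CPM in HF. The Calb2-led spots followed without overlap, at 133 and 109 CPM in MF and 94.7 and 178 CPM in HF. In the Prkcd-led spots it was at 45.6 and 40.0 CPM in MF and 35.3 and 97.5 CPM in HF, so that HF replicate 2 was the highest in both parts. The ranges of the Calb2-led and Prkcd-led spots overlapped, although Lhx9 was higher in the Calb2-led spots of each section. The hippocampus held 33.7 to 38.6 CPM of Lhx9, overlapping the Prkcd-led spots, and had the highest mean outside the diencephalon. Within it, the cluster led by the dentate gyrus genes Dsp, C1ql2 and Prox1 was at 50.7 to 62.8 CPM and a cluster led by Neurod6 and Homer3 at 43.2 to 55.4 CPM. A cluster led by Fibcd1 and Wfs1, genes of CA1 pyramidal cells, was at 3.66 to 8.78 CPM, below both in every section.

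A finer clustering of the thalamic spots gave 8 clusters, none of which met the rule for a name. Gbx2 and Lhx9 were highest in the cluster led by Igkc, Calb2 and C1ql3, with means over the 4 sections of 104 CPM (range 93.96 to 127) and 223 CPM (185 to 284). Rora and Lef1 were lowest in that same cluster, at 353 CPM (318 to 390) and 49.2 CPM (31.0 to 69.7). Rora and Lef1 were highest in the cluster led by Tnc, Cnih3 and Wnt9b, at 900.2 CPM (887 to 910.4) and 158 CPM (130.35 to 191). Tcf7l2 ranged from 186 CPM in the cluster led by Eps8l2 and Scn4b to 379 CPM in that led by Igkc. A cluster led by Grp, Gpr151 and Gm5741, with Pou4f1 among its leading genes, had 138 spots in HF replicate 1. It had 49 to 59 spots in each of the other sections.

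**Figure D2:**
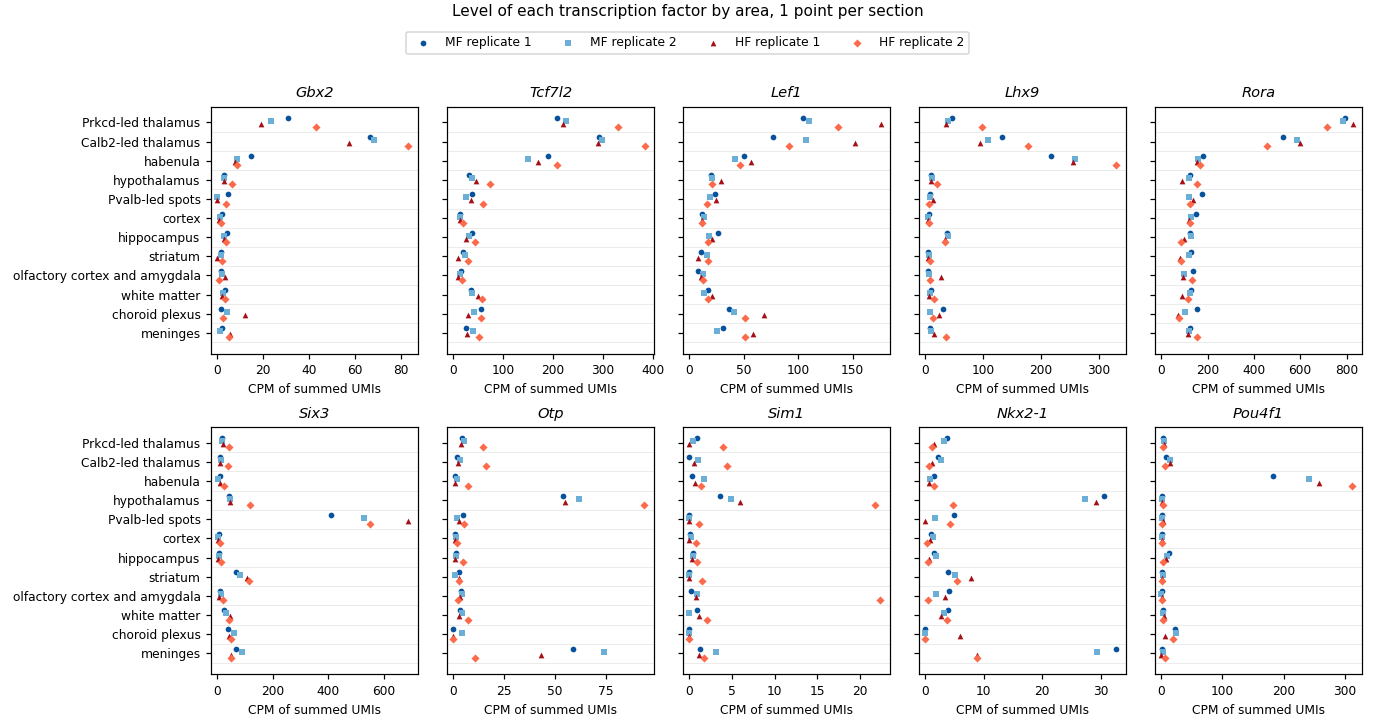
Level of each factor in 12 areas (y axis), 1 panel per factor, as CPM of summed UMIs on the x axis, which differs in scale between panels. Each point is 1 section. By their means over the sections, Rora, Tcf7l2, Lef1 and Gbx2 are highest in the thalamus, Pou4f1 and Lhx9 in the habenula, Six3 in the Pvalb-led spots and Otp, Sim1 and Nkx2-1 in the hypothalamus, with HF replicate 2 apart for Sim1 and Nkx2-1.

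The factors were tested between areas with the sections as blocks, by edgeR's quasi-likelihood test with Benjamini-Hochberg adjustment over all features, and a gene was called at an adjusted p under 0.05 and a change of 1.2-fold. The clusters were built from other genes of the same spots, so these calls describe the areas and are no independent test of them. Against the mean of cortex, hippocampus and striatum, 9 of the 10 factors were called higher in the thalamus and 0 lower, where 40.6% of all 13724 features were called in either direction, 20.3% higher and 20.4% lower. Gbx2 led, with a log2 fold change of 4.35 ± 0.13 (SE, adjusted p = 3.47e-24), followed by Tcf7l2 at 3.61 ± 0.08, Lef1 at 2.99 ± 0.09, Lhx9 at 2.86 ± 0.11 and Rora at 2.62 ± 0.07. Otp (1.72 ± 0.22), Sim1 (1.81 ± 0.36) and Pou4f1 (1.13 ± 0.31) were also called. Nkx2-1 was not, at 0.42 (adjusted p = 0.189), and was called without HF replicate 2 at 0.55 (adjusted p = 0.0456). Pou4f1 was at 0.77 (adjusted p = 0.0559) without HF replicate 1. Six3 was called at 0.38 ± 0.13, and was at 0.20 (adjusted p = 0.192) without HF replicate 2. Of the other thalamic and habenular transcription factors listed, 14 of 24 tested were higher and 4 lower, with a median log2 fold change of 0.72 against -0.0028 over all features. The zinc finger genes Zic1 (3.04 ± 0.17) and Zfhx3 (2.49 ± 0.07) were the furthest among them.

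Between the 2 parts of the thalamus, 7 of 8 factors tested were called, against 14% of 11941 features. Pou4f1 (1.36 ± 0.21), Lhx9 (1.26 ± 0.08), Gbx2 (1.21 ± 0.10) and Tcf7l2 (0.33 ± 0.05) were higher in the Calb2-led spots. Six3 fell by 0.80 on the log2 scale, Rora by 0.58 and Lef1 by 0.34 there. Of 19 other thalamic and habenular factors tested, 4 were higher and 3 lower, with the LIM homeodomain gene Lhx2 (1.02 ± 0.09) first. Lef1 was at -0.26 without HF replicate 2, which is less than 1.2-fold, and Six3 at -0.44 (adjusted p = 0.20) without HF replicate 1. Otp was called without HF replicate 2, at -0.93 (adjusted p = 0.0381). Pou4f1 could not be tested in spots thinned to 5000 UMIs, here or in the Pvalb-led spots. In thalamic spots 1 step (neighbouring spot) from the habenular cluster, it was at 11.6 and 37.5 CPM in MF and 53.4 and 3.81 CPM in HF. In thalamic spots at 6 steps or more it was at 3.47 to 5.42 CPM. The part of spots near the habenula in its thalamic values was not tested.

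Wnt signals are secreted ligands that free beta-catenin to act with Tcf7l2 and Lef1. Of 37 ligands, receptors, regulators and partners of this pathway tested in thalamus against cortex, hippocampus and striatum, 11 were higher and 13 lower, with a median of -0.07. The ligands Wnt9b (4.32 ± 0.17) and Wnt3 (2.64 ± 0.09) were the highest, and the secreted antagonist family member Dkk3 was lowest, at -1.94 ± 0.08. Wnt9b and Wnt3 were also higher in the thalamus than in the hypothalamus, by 3.55 ± 0.18 and 2.15 ± 0.10. In the habenula against the thalamus, 11 of 37 were higher and 11 lower, led by the secreted inhibitor Wif1 (3.42 ± 0.31) and the R-spondin Rspo3 (2.44 ± 0.14), and Tcf7, another member of the TCF family, was 1.95 ± 0.27 higher.

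Pou4f1 was highest in the habenula. Its level there was 182 and 241 CPM in MF and 258 and 312 CPM in HF. The 0.987 to 2.10% of spots that were habenular held 62.5 to 69.4% of the Pou4f1 UMIs of a section. The next areas were the choroid plexus (5.98 to 24.7 CPM) and the Calb2-led thalamus (6.39 to 14.5 CPM), and all lay far below the habenula. Its level fell with distance from the habenular cluster, counted in steps between neighbouring spots. At 1 step it was 45.0 and 72.2 CPM in MF and 52.5 and 20.8 CPM in HF, at 2 steps 9.09 to 21.6 CPM, and at 6 steps or more 1.93 to 2.44 CPM. In spots of the dentate gyrus cluster it was 78.2 to 165 CPM at 1 step (1 to 7 spots per section) and 2.25 to 12.7 CPM at 6 steps or more. Lhx9 did not fall to such a level in that cluster, and was at 31.1 to 49.6 CPM at 6 steps or more.

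**Figure D3:**
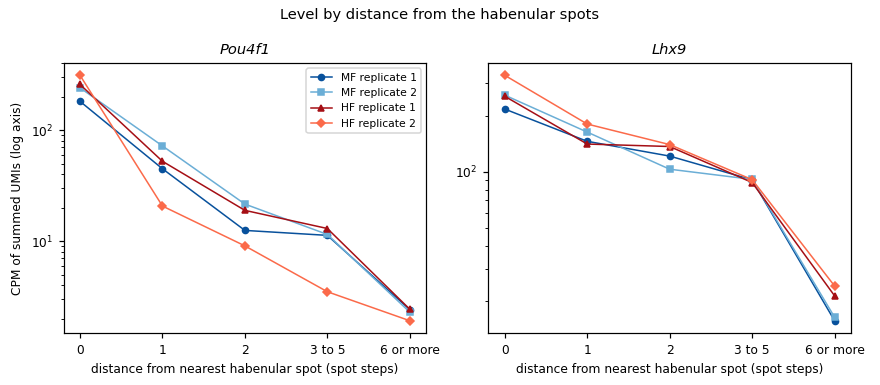
Pou4f1 and Lhx9 as CPM of summed UMIs (y axis, log scale) by the number of spot steps from the nearest habenular spot (x axis), 1 line per section. Pou4f1 falls from 182 to 312 CPM in the habenular spots to 1.93 to 2.44 CPM at 6 steps or more, and Lhx9 from 217 to 331 CPM to 15.7 to 24.2 CPM.

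Against cortex, hippocampus and striatum, 6 of the 10 factors were called higher in the habenula and 0 lower, beside 40.2% of all features (21.1% higher and 19.1% lower). They were Pou4f1 (6.21 ± 0.20, adjusted p = 3.11e-23), Lhx9 (4.51 ± 0.12), Tcf7l2 (2.95 ± 0.11), Gbx2 (2.30 ± 0.30), Lef1 (1.58 ± 0.16) and Rora (0.41 ± 0.10). Of 24 other thalamic and habenular factors tested, 11 were higher and 4 lower, led by the Iroquois genes Irx2 (5.29 ± 0.17) and Irx1 (4.996 ± 0.12). Six3 was also called, as lower, without HF replicate 2 (-0.82, adjusted p = 0.0148) and with no filter on low counts (-0.63, adjusted p = 0.00347). Against the thalamus, Pou4f1 (5.08 ± 0.20) and Lhx9 (1.64 ± 0.10) were higher in the habenula. Rora fell by 2.21 there on the log2 scale, Gbx2 by 2.06, Otp by 1.80, Lef1 by 1.41, Six3 by 0.9997 and Tcf7l2 by 0.66, which made 8 of 10 called beside 33.9% of all features. Six3 was at -0.81 (adjusted p = 0.0534) without MF replicate 2 and Otp at -1.48 (adjusted p = 0.0581) without MF replicate 1. In spots thinned to 5000 UMIs neither Six3 (-1.24, adjusted p = 0.0535) nor Otp (-0.48, adjusted p = 0.717) was called. Nkx2-1 was called in addition without HF replicate 2 (-1.42, adjusted p = 0.0470) and with no filter (-1.30, adjusted p = 0.0268).

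Six3 was highest in the Pvalb-led spots, where it was at 410.3 and 528 CPM in MF and 688 and 551 CPM in HF. The MF sections lay below the HF sections there. The Pvalb-led spots were 1.27 to 2.81% of a section and held 24.6 to 33.1% of its Six3 UMIs. The striatum (66.7 to 112 CPM), the meninges (50.9 to 87.8 CPM) and the hypothalamus (40.7 to 117 CPM) followed and overlapped each other. Against the Prkcd-led thalamus Six3 was 4.43 ± 0.13 higher on the log2 scale (adjusted p = 2.27e-26). Gbx2 (-3.33 ± 0.28), Lhx9 (-2.82 ± 0.21), Lef1 (-2.58 ± 0.14), Tcf7l2 (-2.57 ± 0.09), Rora (-2.42 ± 0.07) and Pou4f1 (-1.39 ± 0.52) were lower, so 7 of 8 factors tested were called beside 26.6% of all features. Pou4f1 was at 0.496 to 4.37 CPM in these areas, and its call was lost without MF replicate 1 (-0.78, adjusted p = 0.409) and without MF replicate 2 (-1.43, adjusted p = 0.0774). Otp was called without MF replicate 1 (-1.48, adjusted p = 0.00808) and with no filter on low counts (-0.92, adjusted p = 0.0270). Of 21 other hypothalamic and prethalamic factors tested, 12 were higher and 2 lower. Nhlh2, a bHLH gene, was lowest at -3.22 ± 0.41, and those that were higher included Dlx2 (2.39 ± 0.32), Dlx5 (2.27 ± 0.23) and Dlx6 (2.27 ± 0.21), homeodomain genes of forebrain GABAergic neurons.

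Otp, Sim1 and Nkx2-1 had their highest means over the sections in the hypothalamus. Otp was at 53.9 and 61.9 CPM in the hypothalamic spots of MF and at 55.1 and 94.1 CPM in those of HF. These spots, 17.5 to 18.9% of a section, held 72.3 to 80% of its Otp UMIs. Nkx2-1 was at 30.5 and 27.2 CPM in MF, at 29.1 CPM in HF replicate 1 and at 4.67 CPM in HF replicate 2. Sim1 was sparse, with whole-section totals of 80, 57 and 49 UMIs in MF replicates 1 and 2 and HF replicate 1 and 272 in HF replicate 2. Its hypothalamic level was 3.64 and 4.92 CPM in MF, 5.97 CPM in HF replicate 1 and 21.8 CPM in HF replicate 2. Without HF replicate 2, Nkx2-1 lay within 27.2 to 30.5 CPM and Sim1 within 3.64 to 5.97 CPM.

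Outside the hypothalamus, Otp and Nkx2-1 were next highest in the spots with meningeal genes. Otp was at 59.0 and 74.2 CPM there in MF and at 43.1 and 10.5 CPM in HF, and Nkx2-1 was at 32.6 and 29.3 CPM in MF and at 8.85 and 8.77 CPM in HF. For both genes the ranges of the meningeal and hypothalamic spots overlapped. Nkx2-1 in the striatum was at 3.91 and 4.999 CPM in MF and 7.79 and 5.36 CPM in HF, so HF replicate 2 did not stand apart there. Sim1 in the olfactory cortex and amygdala was at 0.256 to 0.876 CPM in 3 sections and at 22.4 CPM in HF replicate 2.

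The hypothalamic spots were divided further into 8 clusters. Otp was highest in the cluster led by Agrp and Tmem212, at 130.0 and 144 CPM in MF and 91.2 and 196 CPM in HF. In the cluster led by Hdc, Npw and Trh, Otp was at 48.7, 61.1 and 73.7 CPM in MF replicates 1 and 2 and HF replicate 1 and at 206 CPM in HF replicate 2. Sim1 moved with it there, at 2.87, 8.45, 4.17 and 40.5 CPM in the same order of sections. Nkx2-1 went the other way, at 45.9, 44.2 and 58.4 CPM and at 2.38 CPM in HF replicate 2. Six3 was at 14.3, 13.8 and 21.2 CPM in the cluster led by Hcrt and Nxph4 in the first 3 sections and at 149 CPM in HF replicate 2.

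**Figure D4:**
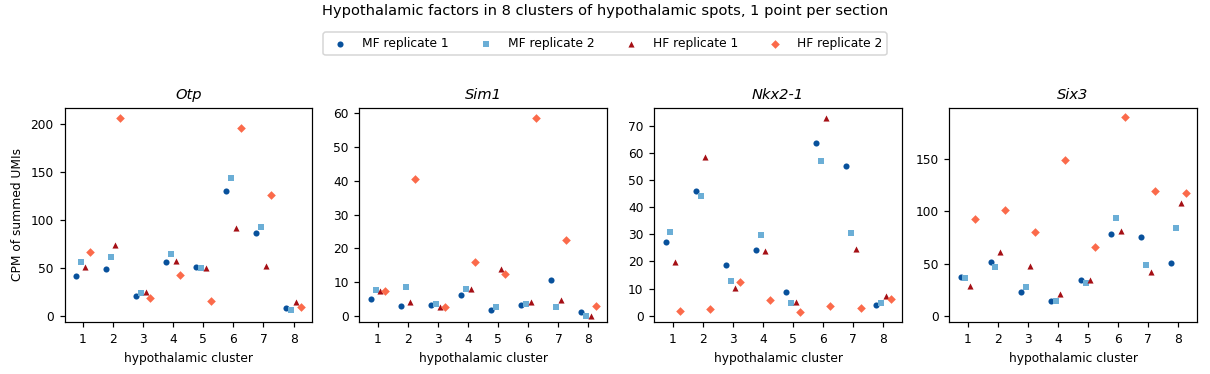
Otp, Sim1, Nkx2-1 and Six3 as CPM of summed UMIs (y axis) in 8 clusters of hypothalamic spots (x axis), 1 point per section. In clusters 2 (led by Hdc) and 6 (led by Agrp), HF replicate 2 is above the other sections for Otp and Sim1 and, at 2.38 and 3.61 CPM, below them for Nkx2-1.

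Against cortex, hippocampus and striatum, 7 of the 10 factors were called higher in the hypothalamus and 1 lower, beside 44.2% of all features (24.1% higher and 20.1% lower). Otp (5.10 ± 0.14, adjusted p = 3.66e-25), Sim1 (4.36 ± 0.24), Nkx2-1 (3.62 ± 0.18) and Six3 (1.81 ± 0.11) led, with Tcf7l2 at 0.91 ± 0.10, Gbx2 at 0.68 ± 0.24 and Lef1 at 0.42 ± 0.12. Gbx2 was at 0.38 (adjusted p = 0.24) without HF replicate 2. Pou4f1 was the factor called lower, at -1.195 ± 0.50 with an adjusted p of 0.0381, and it was not called without MF replicate 1, MF replicate 2 or HF replicate 1 (adjusted p = 0.0962, 0.149 and 0.0749), nor with scaling by library size alone (-1.09, adjusted p = 0.0559) or at a clustering resolution of 0.5 (-0.96, adjusted p = 0.0629). In spots thinned to 5000 UMIs the calls of Gbx2 (0.62, adjusted p = 0.192), Lef1 (0.35, adjusted p = 0.0540) and Pou4f1 (-0.95, adjusted p = 0.0742) were lost. Of 28 other hypothalamic and prethalamic factors tested, 20 were higher and 2 lower, with a median of 0.98 against 0.02 over all features. Six6, a relative of Six3, was among the higher ones, at 6.93 ± 0.41. In thalamus against hypothalamus all 10 factors were called, beside 43% of all features. Gbx2 (3.68 ± 0.14), Lhx9 (2.72 ± 0.12), Tcf7l2 (2.70 ± 0.09), Rora (2.65 ± 0.09), Lef1 (2.56 ± 0.10) and Pou4f1 (2.33 ± 0.38) were higher in the thalamus. Otp fell by 3.38 there on the log2 scale, Nkx2-1 by 3.20, Sim1 by 2.56 and Six3 by 1.42.

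The deposited table of Moran's I, a measure of how alike neighbouring spots are, gave values from 0.0478 to 0.651 for the factors, where 0 means no likeness. Tcf7l2 was at 0.550 to 0.651, with rank 22 to 38 among the features of a section, and Rora at 0.483 to 0.596 (rank 44 to 70). Pou4f1 was at 0.367 to 0.539, Otp at 0.345 to 0.5305, Lhx9 at 0.402 to 0.483, Gbx2 at 0.375 to 0.456, Lef1 at 0.345 to 0.444 and Six3 at 0.349 to 0.424. Nkx2-1 was lower, at 0.0914 to 0.298 (rank 339 to 1853), and Sim1 was at 0.0478 to 0.224 (rank 525 to 3946). Sim1 was the lowest of the factors in 3 sections, and in HF replicate 2 Nkx2-1 was lowest, at 0.0914 against 0.224 for Sim1. Sim1 had 49 to 272 UMIs per section and Nkx2-1 87 to 642.

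Across the 20 clusters, which share sections and depth, the level of Gbx2 was most like those of Grid2ip (Pearson's r = 0.963), Shox2 and Slitrk6. Tcf7l2 was most like Gdf11 (0.961), Tafa4 and Gbx2, Lef1 most like Synpo2 (0.949), Amotl1 and Slc29a1, and Rora most like Endou (0.953), Abhd12b and Ptpn4. For Lhx9 the nearest were Vav3 (0.918), Nhlh2 and Irx2, and for Pou4f1 Gm5741 (0.989), Gpr151 and Gng8. For Six3 they were Isl1 (0.892), Gpx1 and Rassf8, for Otp Gm45194 (0.986), Esyt3 and Irs4, for Sim1 Erp29 (0.930), Magel2 and Ppp1r17, and for Nkx2-1 Calcr (0.944), Hdc and Ghrh. Among the factors themselves r was 0.944 for Gbx2 and Tcf7l2, 0.925 for Tcf7l2 and Lef1, 0.920 for Otp and Nkx2-1 and 0.838 for Lhx9 and Pou4f1.

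The diets were compared in the thalamus first. Gbx2, Lhx9, Lef1 and Tcf7l2 were higher in both HF sections than in both MF sections, and Rora and Nkx2-1 lower. These were 6 of 10 factors without overlap, beside 38.3% of 13212 features. Tcf7l2 was at 223 and 247 CPM in MF and at 273 and 342 CPM in HF. Lef1 was at 99.3 and 109 CPM in MF and at 158 and 127 CPM in HF. Lhx9 was at 61.7 and 60.0 CPM in MF and at 79.5 and 116 CPM in HF. HF replicate 1 was the farther from MF for Lef1 and HF replicate 2 for Tcf7l2 and Lhx9. Gbx2 was at 37.4 and 36.3 CPM in MF and at 47.5 and 51.8 CPM in HF, and Rora was at 745 and 728 CPM in MF and at 656.2 and 656.9 CPM in HF. Nkx2-1 was sparse, at 3.43 and 3.10 CPM in MF and at 1.2 and 1.01 CPM in HF.

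None of these passed the test over all features. The labels do not say that the sections came from separate litters, so p-values measure the spread between these sections. In the thalamus edgeR called 0 of 9 factors tested and 0% of 13393 features, and DESeq2 called 0 factors. By edgeR 5 factors and 945 of the 13393 features had an unadjusted p under 0.05. The log2 fold changes of HF over MF were 0.67 ± 0.17 for Lhx9, 0.45 ± 0.12 for Lef1 and 0.42 ± 0.10 for Gbx2 (adjusted p = 0.598 for each), 0.38 ± 0.12 for Tcf7l2 (adjusted p = 0.639) and -0.17 ± 0.08 for Rora (adjusted p = 0.716). Nkx2-1 was at -1.56 ± 0.32 (adjusted p = 0.598). Lhx9 was called with the replicate number as a block (0.64, adjusted p = 0.00503) and with no filter on low counts (0.67, adjusted p = 0.00188). With no filter Nkx2-1 was called too (-1.56, adjusted p = 0.0307). The share of all features called was not counted in these settings. Without 1 of the HF sections the test assumes that the section that is left varies like those of MF. Only log2 fold changes are therefore given. Without HF replicate 1 and without HF replicate 2, in this order, they were 0.48 and 0.35 for Gbx2 and 0.29 and 0.60 for Lef1. Lhx9 was at 0.92 and 0.37 and Nkx2-1 at -1.71 and -1.47. Tcf7l2, Six3, Otp and Sim1 were at 0.54, 1.39, 1.83 and 2.55 without HF replicate 1. Pou4f1 was at 1.04 without HF replicate 2.

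Within the parts of the thalamus the levels of Gbx2 overlapped between diets in both the Prkcd-led and the Calb2-led spots, with log2 fold changes of 0.27 ± 0.31 and -0.01 ± 0.17, and so did those of Lhx9 and Tcf7l2. HF replicate 1 had 378 Calb2-led and 220 Prkcd-led spots, and the other 3 sections 88 to 163 Calb2-led and 436 to 555 Prkcd-led spots. The part of this difference in the thalamic values was not tested. In the Prkcd-led spots Lef1 and Six3 were higher in both HF sections and Nkx2-1 lower, 3 of 9 factors, beside 36% of all such features. Lef1 was at 0.54 ± 0.14 there (adjusted p = 0.883). In the Calb2-led spots all 8 factors overlapped between the diets, beside 31.1% of all such features without overlap. edgeR called 0 of 9 and 0 of 7 factors in these parts, beside 0% and 0.00831% of all features, and DESeq2 called 0 in both. By edgeR 4 and 0 factors had an unadjusted p under 0.05, beside 659 of 12842 and 402 of 12034 features. Without HF replicate 2 Lef1 was at 0.73 in the Prkcd-led and 0.74 in the Calb2-led spots, and Lhx9 at -0.35 in the Calb2-led spots.

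In the habenula Pou4f1 and Six3 were higher in both HF sections and Gbx2 lower, 3 of 7 factors with 50 UMIs or more, beside 34.4% of all such features. edgeR called 0 of 7 factors and 0.234% of all features, and DESeq2 called 0 factors. By edgeR 2 factors had an unadjusted p under 0.05, beside 696 of 11112 features. Pou4f1 was at 0.43 ± 0.14 (adjusted p = 0.370), Lhx9 at 0.28 ± 0.14 (adjusted p = 0.803) and Six3, at 2.61 to 23.9 CPM, at 1.22 ± 0.46 (adjusted p = 0.529). Pou4f1 was at 0.60 without HF replicate 1, 0.22 without MF replicate 1 and 0.62 without MF replicate 2. Six3 ran from 0.72 without HF replicate 2 to 2.55 without MF replicate 1, Lhx9 from 0.11 without HF replicate 2 to 0.49 without HF replicate 1, and Gbx2 from -0.89 without MF replicate 2 to -0.15 without MF replicate 1. The summed choroid plexus genes of these spots, given above, were also higher in both HF sections, as were the summed 12 medial habenula markers, at 2832 and 3408 CPM in MF and 3466 and 4251 CPM in HF. Among the peptide genes, Avp was called higher in HF in these spots (7.61 ± 0.84, adjusted p = 1.07e-06) and Pmch lower (-2.35 ± 0.30, adjusted p = 1.25e-05). Both peptide values include HF replicate 2 and are not given without it. The part of these gene groups in the factors' values was not tested.

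In the hypothalamus Sim1, Six3 and Tcf7l2 were higher in both HF sections, 3 of 9 factors, beside 38.1% of all such features. edgeR called 0 of 10 factors and 0% of 13495 features, and DESeq2 called 0 factors. By edgeR 3 factors had an unadjusted p under 0.05, beside 950 of the 13495 features. Sim1 was at 1.73 ± 0.54, Six3 at 0.93 ± 0.37, Tcf7l2 at 0.78 ± 0.22 (adjusted p = 0.703 for each) and Nkx2-1 at -0.83 ± 0.58 (adjusted p = 0.773). Without HF replicate 2 these were 0.50 for Sim1, 0.050 for Six3, 0.38 for Tcf7l2 and -0.021 for Nkx2-1. Rora was at -0.44 without HF replicate 2 and at 0.33 without HF replicate 1. With no filter on low counts Sim1 (1.73), Six3 (0.92) and Tcf7l2 (0.77) were called, and the share of all features called was not counted there. Six3 and Tcf7l2 were at 40.7 and 44.4 CPM and at 31.2 and 37.7 CPM in MF, at 44.6 and 45.0 CPM in HF replicate 1 and at 117 and 73.0 CPM in HF replicate 2. Otp was at 0.36 ± 0.23 (adjusted p = 0.758), and Lef1 at 0.27 ± 0.18 (adjusted p = 0.764).

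**Figure D5:**
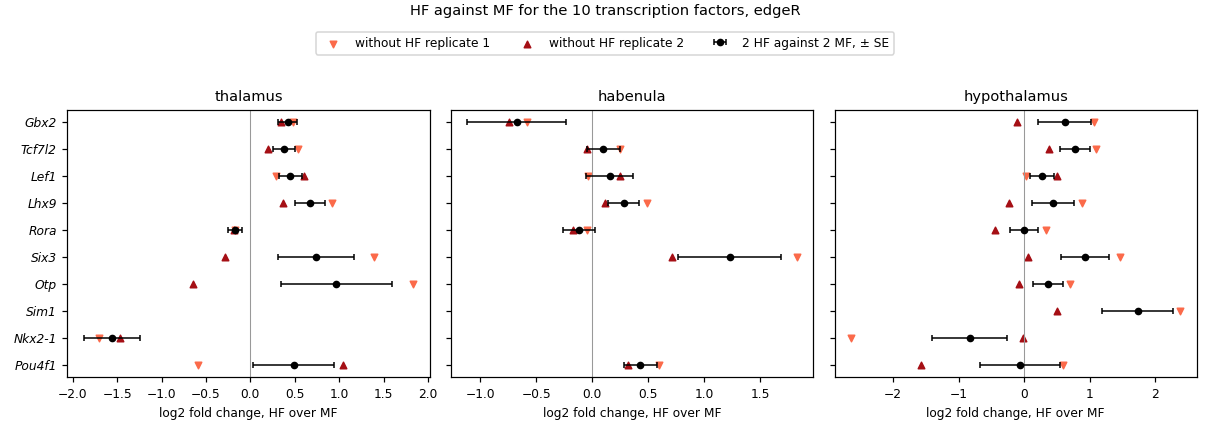
Log2 fold change of HF over MF for each factor tested (x axis) in the thalamus, habenula and hypothalamus, with edgeR's estimate ± SE from all 4 sections (circles) and estimates without either HF section (triangles). In the thalamus Gbx2, Tcf7l2, Lef1 and Lhx9 stay above 0 in all 3 estimates, and in the hypothalamus Nkx2-1 is at -0.021 without HF replicate 2. None of the factors passed the test with all 4 sections.

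Outside the diencephalon Rora was lower in both HF sections in the cortex, hippocampus, striatum and white matter. It was at 126 and 129 CPM in MF and at 99.2 and 86.0 CPM in HF in the hippocampus, a log2 fold change of -0.46 ± 0.10 (adjusted p = 0.0602), where edgeR called 0.347% of all features. Pou4f1 in the hippocampus was at 12.7 and 9.77 CPM in MF and at 7.09 and 2.68 CPM in HF (-1.35 ± 0.32, adjusted p = 0.0934), and the summed medial habenula markers of those spots were at 289 and 254 CPM in MF and at 188 and 165 CPM in HF. edgeR called 0 factors in the cortex, hippocampus, striatum, white matter, Pvalb-led spots and whole section too, beside 0.159%, 0.347%, 0.0629%, 0.0158%, 0.0573% and 0% of all features. DESeq2 called 0 factors in each of them. By edgeR 0, 2, 2, 3, 2 and 3 factors had an unadjusted p under 0.05 there. Over all features, in the same order, these were 1070 of 13168, 1158 of 12674, 751 of 11126, 635 of 12630, 452 of 10478 and 1020 of 14971. Factors did not overlap between the diets for 2 of 8 in the cortex, 3 of 7 in the hippocampus, 2 of 4 in the striatum, 4 of 9 in the white matter and 5 of 10 in the whole section. The shares of all such features were 37.1%, 38.8%, 36.3%, 33.9% and 39.6%. In the striatum Rora was at -0.59 ± 0.14 (adjusted p = 0.207) and Six3 at 0.59 ± 0.15 (adjusted p = 0.272). Without MF replicate 2 Pou4f1 in the hippocampus was at -1.47. Hypothalamic peptide genes were called between the diets in 4 of these areas, 2 of 12 tested in the cortex (Avp higher, Hcrt lower), 2 of 12 in the hippocampus (Avp higher, Pmch lower), 2 of 7 in the striatum (Hcrt and Pmch lower) and 4 of 10 in the Pvalb-led spots (Avp higher, Pmch, Hcrt and Cartpt lower). These peptide calls include HF replicate 2, which differed in such genes, and are not given without it. The part of these genes in the factors' values was not tested. In the Pvalb-led spots Six3 was higher in both HF sections, at 0.38 ± 0.16 (adjusted p = 0.985), and 1 of 4 factors with 50 UMIs did not overlap, beside 33.9% of all such features.

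A diet effect that differed between thalamus, hypothalamus, cortex, hippocampus and striatum was tested as an interaction over all 14003 features. edgeR called 0 of the 10 factors and 0.179% of all features, and 6 factors had an unadjusted p under 0.05, beside 1153 of the 14003 features. Lhx9 had the lowest adjusted p, at 0.101, followed by Tcf7l2 at 0.221 and Lef1 at 0.295. With no filter on low counts edgeR called 6 factors, a setting in which the share of all features called was not counted. DESeq2 was not run on this term. For the same term edgeR called 1 of 25 other thalamic and habenular factors (Zic4, adjusted p = 0.0490), 0 of 37 other hypothalamic and prethalamic factors, 0 of 38 Wnt partners and 2 of 15 hypothalamic peptides, Pmch (adjusted p = 0.000103) and Pdyn, the prodynorphin gene (adjusted p = 0.0435). The calls of these listed genes are not given without HF replicate 2. Of the other lists, 0 of 26 other thalamic and habenular factors, 0 of 39 other hypothalamic and prethalamic factors, 0 of 39 Wnt partners and 0 of 15 hypothalamic peptides were called between the diets over the whole section, with medians of 0.14, 0.013, 0.025 and -0.47 against 0.0020 over all features. The median of the 10 factors was 0.39, with 8 of 10 above 0. These medians include HF replicate 2 and are not given without it. An exact permutation test of 2 sections against 2 cannot give a two-sided p below 0.333, so no such test could pass for a single factor.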

How the data were processed

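Visium libraries of 4 formalin-fixed coronal sections were sequenced by the authors, and raw UMI counts per feature and spot were deposited. Per the labels and methods, Space Ranger and Seurat were used with the mouse build mm10. The Moran's I score of each feature, with its count of UMIs, was also deposited per section. Grid positions were taken from the deposited tables, and the image scale files were not used here. Each section held 34983708 to 90098381 UMIs, and depth limits sparse genes such as Sim1.

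The 10 factors and the gene lists were chosen with earlier results of these data known. Groups came from the sample titles. A spot was kept with at least 500 UMIs and 250 genes. The 4 sections shared 2474 spot barcodes, which are positions of the array and not shared cells. The 2000 most variable features, without the listed genes, were scaled within each section, reduced to 30 principal components and clustered (20 neighbours, leidenalg 0.10.2, resolution 1). UMIs were summed per section and area and tested with edgeR 4.0.16 in R 4.3.3 (TMM, filterByExpr, quasi-likelihood test, Benjamini-Hochberg over all features). Calls needed an adjusted p under 0.05 and a 1.2-fold change. The methods tested single spots with a Wilcoxon test. Sections, not spots, are replicates here, so sums per section were tested instead. Midline and reticular subregions were to be compared with relay spots, but none of the 8 thalamic clusters could be named. The Calb2-led, Prkcd-led and Pvalb-led clusters were compared in their place, a choice made after seeing the data. The Pvalb-led spots were not among the thalamic spots, the only ones in which a reticular name could be given.

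Named genes were all 10 factors, the 3 features with the highest Pearson's r to each over the clusters, and up to 4 called genes per list by absolute log2 fold change. Overlap counts used features with 50 UMIs or more. Alternatives were DESeq2 1.42.0, library size in place of TMM, no filter on low counts, spots thinned to 5000 UMIs, Leiden resolution 0.5, a spot filter of 1000 UMIs and 500 genes, scaling over all spots, the replicate number as a block, and each section left out. The fits were tried on simulated counts with 200 features changed 2-fold and the same spread set for all features and sections. This does not show how they perform where a section differs as HF replicate 2 does. Same-numbered sections deviated with r of -0.165 in the whole section, -0.122 in the thalamus, -0.023 in the habenula and -0.161 in the hypothalamus. With 2 sections per group this cannot show whether the numbers pair them.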

Additional observations from a re-analysis of the deposited data

How the results depend on the processing

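For the called differences between areas, 208 of 220 values without 1 section and 183 of 190 under other alternatives kept their direction and call, the rest fell short of a call, and none turned. For HF against MF, values were followed in the thalamus, habenula and hypothalamus, for factors with a mean of at least 9 CPM there. Sparser factors, such as Nkx2-1, Otp and Pou4f1 in the thalamus, are not among them. Of 84 such values without 1 section, 8 turned in direction and the rest kept it. Changes of call are not counted for these, as 1 group had 1 section left. Of 152 under other alternatives, 138 kept direction and call, 7 became called and 7 turned. Factors called between the diets, 0 in each area with all sections, ranged without 1 section from 0 to 8 in the thalamus and hypothalamus, 0 to 7 in the whole section and Prkcd-led spots, 0 to 6 for the region by diet term, 0 to 4 in the Calb2-led spots and hippocampus, 0 to 2 in the cortex and striatum and 0 to 1 in the habenula and white matter. With no filter on low counts the counts were 2 in the thalamus, 3 in the hypothalamus, 2 in the hippocampus and 6 for the region by diet term. The replicate block called 1 factor in the thalamus and changed no other call, although the labels do not say that the section numbers pair the samples. A crossed pairing, chosen after seeing the data, called 2 factors each in the thalamus, hippocampus and striatum and 1 in the Prkcd-led spots. The share of all features called was not counted with no filter, with the replicate block or with the crossed pairing. In spots thinned to 5000 UMIs, 5 factors in place of 8 were called in hypothalamus against cortex, hippocampus and striatum.

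Without 1 section the log2 fold change of HF over MF ran from -0.28 to 1.39 for Six3 in the thalamus, from -0.045 to 0.31 for Tcf7l2 and -0.034 to 0.32 for Lef1 in the habenula, and in the hypothalamus from -0.23 to 0.89 for Lhx9, -0.44 to 0.33 for Rora and -0.085 to 0.70 for Otp. Rora in the habenula was at 0.045 after thinning. In the hypothalamus, where Rora was at 0.0012, it was at -0.0022 with DESeq2, -0.050 with the replicate block, -0.033 with the crossed block, -0.0042 with no filter, -0.062 after thinning and -0.013 with scaling over all spots. The causes were not tested. At resolution 0.5 and with scaling over all spots the habenula merged with the choroid plexus and gave no value, and at resolution 0.5 the thalamus was 1 cluster.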
